A study of Homo sapiens with 8 samples.

Results

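The matrix genes described here were 43 genes for collagen chains, the enzymes that modify and cross-link collagen, laminins and other basement membrane proteins, matrix glycoproteins, matrix proteases and their inhibitors, chosen by name from the 60332 genes of the expression table. Of the 43, 31 reached 1 FPKM (a read count scaled to transcript length and library depth) in every library and 39 reached it in at least 1 library. A total of 38 reached 1 FPKM in at least 2 of the 8 libraries and were tested among 15372 genes, and none of the 38 passed through a single group alone.

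The study measured polyadenylated RNA of SK-N-MC, a Ewing sarcoma (EwS) cell line that carries the EWSR1::FLI1 fusion, to ask how the cells respond to hypoxia when an enhancer of LOXHD1 is repressed. The control cells expressed dCas9-KRAB (inactive Cas9 joined to the KRAB repressor domain) with no guide RNA, and were kept in normoxia or at 1% oxygen for 16 h. The eKD1 and eKD2 cells carried dCas9-KRAB with 1 of a pair of guide RNAs against the LOXHD1 enhancer and were kept at 1% oxygen for 16 h only, so that the response of the eKD cells to hypoxia itself was not measured here. Each of the 4 groups had 2 libraries, described as biological duplicates by the study. All groups shared the single cell line and the lentiviral repressor, and the eKD cells were polyclonal, drug-selected pools with 1 guide per line.

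Collagen chains are made in the endoplasmic reticulum, where prolyl 4-hydroxylases and lysyl hydroxylases modify them in reactions that consume molecular oxygen, 2-oxoglutarate and iron, and where the chaperone HSP47, the product of SERPINH1, binds the folded helix. After secretion, lysyl oxidases cross-link the chains, and laminins, type IV collagen, nidogen and perlecan are laid down together in basement membranes. Matrix metalloproteinases cut these proteins and the TIMP proteins inhibit them, and several genes of collagen modification are known targets of hypoxia-inducible factors.

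Promoter sequences were read for the members from RefSeq windows of 300 bases on GRCh38.p14, 250 before to 50 after an annotated start, and 32 of the 43 members had one. The windows were searched on both strands for ACGTG and GCGTG, the core letters of the hypoxia response element. Of 38 member windows, 17 held at least 1 match, against 48.4% of all 35116 windows and 60.8% of the windows of genes tested here. Of the 16 members with a window read that were called higher with hypoxia, 9 held a match. Below are the windows of the hydroxylase genes P4HA1, PLOD1 and PLOD2, whose transcripts rose with hypoxia and which held 1, 2 and 3 matches, and that of the type IV collagen gene COL4A2, shown because its window overlaps the COL4A1 window on the opposite strand by 226 bases. Capitals mark the matched letters, the P4HA1 and PLOD2 windows are on the minus strand, and each is written 5′ to 3′ on its gene's strand.
P4HA1, chr10:73096817-73097116: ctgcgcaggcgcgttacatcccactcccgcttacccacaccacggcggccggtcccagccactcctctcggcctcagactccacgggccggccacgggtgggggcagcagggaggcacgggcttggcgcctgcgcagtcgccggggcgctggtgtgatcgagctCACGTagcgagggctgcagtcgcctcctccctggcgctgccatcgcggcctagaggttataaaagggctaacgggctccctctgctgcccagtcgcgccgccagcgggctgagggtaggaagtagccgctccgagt
PLOD1, chr1:11934467-11934766: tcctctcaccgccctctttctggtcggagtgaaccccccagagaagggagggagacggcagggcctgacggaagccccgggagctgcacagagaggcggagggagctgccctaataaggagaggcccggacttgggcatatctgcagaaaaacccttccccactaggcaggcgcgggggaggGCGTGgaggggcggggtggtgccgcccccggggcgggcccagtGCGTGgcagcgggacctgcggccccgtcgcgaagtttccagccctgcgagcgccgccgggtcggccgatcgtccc
PLOD2, chr3:146161135-146161434: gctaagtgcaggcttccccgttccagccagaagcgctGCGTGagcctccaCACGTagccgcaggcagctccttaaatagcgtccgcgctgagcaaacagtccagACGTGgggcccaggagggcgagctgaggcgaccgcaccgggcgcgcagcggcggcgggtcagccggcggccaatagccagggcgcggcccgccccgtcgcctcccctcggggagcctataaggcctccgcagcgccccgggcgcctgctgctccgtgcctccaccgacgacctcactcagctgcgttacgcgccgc
COL4A2, chr13:110307034-110307333: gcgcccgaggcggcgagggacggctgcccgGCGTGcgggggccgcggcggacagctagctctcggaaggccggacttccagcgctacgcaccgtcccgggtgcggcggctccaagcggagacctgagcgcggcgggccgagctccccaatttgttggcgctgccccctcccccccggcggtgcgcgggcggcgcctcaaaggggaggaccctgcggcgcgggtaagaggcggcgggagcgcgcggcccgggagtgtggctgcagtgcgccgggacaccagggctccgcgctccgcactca
The P4HA2 window and the COL4A1 window held 0 matches, and these matches are letters in a window that were not tested for binding or function.

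Between 19310 and 20770 genes were above 0 FPKM, and the relative depth read from the steps of low FPKM values was 55.7% to 100% of that of the deepest library, with both normoxia libraries (76.0% and 55.7%) below both control hypoxia libraries (100% and 96.1%). FPKM totals ran from 865107 to 1041457, and both normoxia totals were below both control hypoxia totals. Duplicates correlated at 0.954 to 0.963 across genes. LOXHD1 measured 93.0 and 91.1 FPKM in hypoxic control cells against 17.3 and 15.0 FPKM for eKD1 and 11.7 and 11.8 FPKM for eKD2. In control normoxia it was at 155.8 and 168.5 FPKM, so that its control hypoxia mean was 56.8% of its normoxia mean. CA9, a hypoxia marker gene, had values of 0 in normoxia and of 56.9 to 82.8 FPKM elsewhere. All 10 EwS markers used as a check were expressed. Of 4 epithelial markers, 2 reached 1 FPKM in some library. These were EPCAM, at 3.39 to 5.80 FPKM over the 8 libraries, and CDH1, with a highest value of 2.33 FPKM. The keratin gene KRT5 was listed at 0 throughout.

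Hypoxia in control cells moved most of the matrix genes. Of the 38 tested members, 24 rose and 1 fell (limma on log2(FPKM + 1), adjusted p below 0.05 over all tested genes), while 16.2% of all tested genes rose and 16.0% fell. The median change of the tested members was 0.66 on the log2 scale and that of all tested genes was 0.01. The members were chosen with earlier results of these data known, so setting them beside all tested genes is a description and no test of enrichment. Among the members, both tested prolyl 4-hydroxylase subunits, 2 of 3 lysyl hydroxylases and all 5 tested fibrillar chains rose. All 3 tested member chains of basement membrane collagens and 2 of 3 type VI chains rose too, whereas 0 of 4 proteases passed the test. The summed FPKM of the 15 member collagen chains was 387 and 384 in normoxia and 657 and 655 in control hypoxia. As shares of all FPKM these sums were 0.0447% and 0.0438% in normoxia and 0.063% and 0.0643% in control hypoxia. The sums leave out COL16A1, a chain outside the members that exceeded every member chain per length in all 8 libraries. COL16A1 was at 316 and 272 FPKM in normoxia and at 231 and 242 FPKM in control hypoxia, and did not pass the test. With libraries scaled to equal FPKM totals, 19 members were called higher and 3 lower. The median change was then 0.42 for the members and -0.195 for all tested genes. These are bulk libraries, in which fewer cells of a type and less RNA per cell cannot be told apart.

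**Figure D1:**
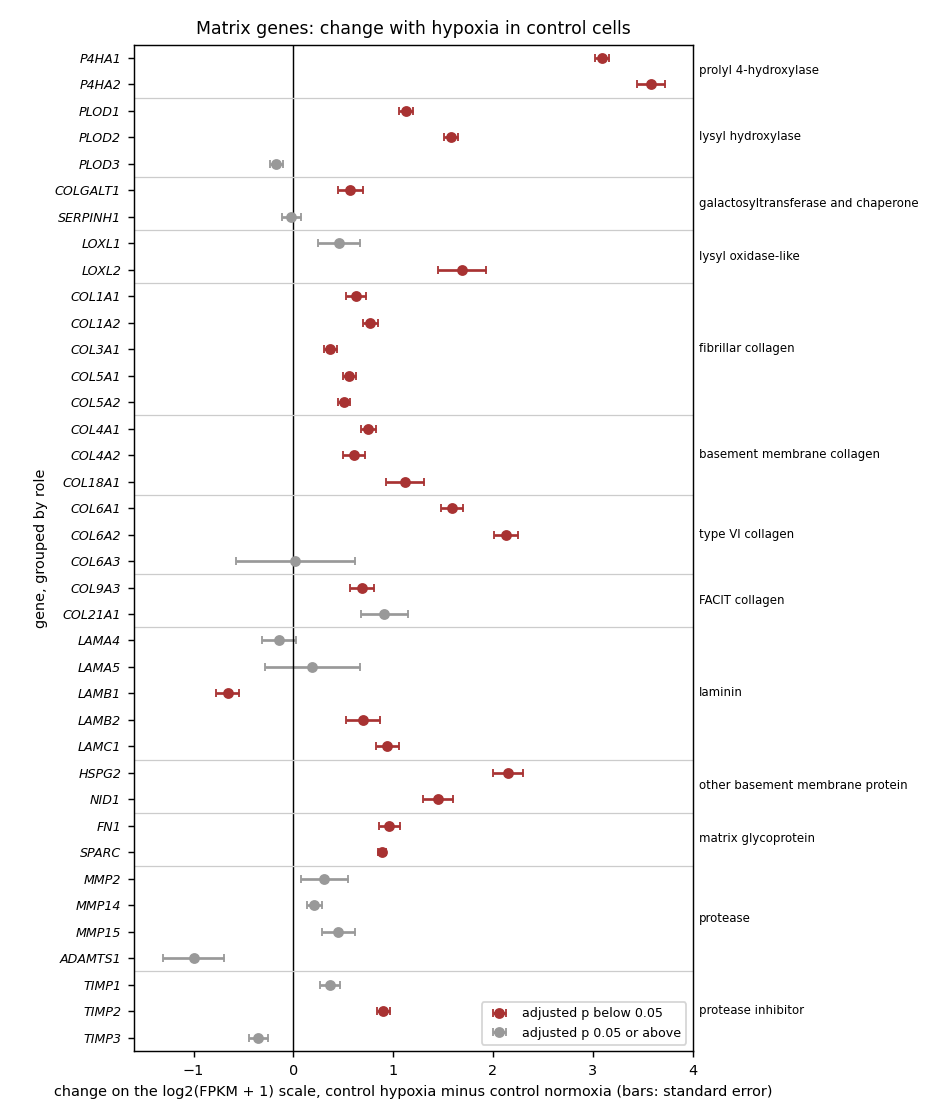
Change of each tested matrix gene with hypoxia in control cells (x axis, control hypoxia minus control normoxia on the log2(FPKM + 1) scale, bars show the standard error), ordered by role. Red points passed an adjusted p of 0.05 and gray points did not. P4HA1 and P4HA2 lie above 3, LAMB1 is the red point below 0, and the 4 proteases are gray.

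The largest increases were those of the prolyl 4-hydroxylase subunits, the catalytic chains that make the 4-hydroxyproline on which the collagen helix depends. P4HA1 (ENSG00000122884.12_2, GRCh37 chr10:74766975-74856732, minus strand) was at 12.3 and 12.9 FPKM in normoxia and at 117 and 113 FPKM in hypoxia, a 9.12-fold ratio of means with a log2 change of 3.09 ± 0.0715 (SE, adjusted p = 0.00238). P4HA2 (ENSG00000072682.18_3, GRCh37 chr5:131525840-131631008, minus strand) was at 0.529 and 0.663 FPKM in normoxia and at 18.4 and 17.8 FPKM in hypoxia, with a log2 change of 3.58 ± 0.139 (SE, adjusted p = 0.00618). Both hypoxia libraries lay far above both normoxia libraries for each gene, and P4HA2 went from near the detection filter to a moderate level. The ratio of P4HA1 to P4HA2 FPKM was 23.2 and 19.5 in normoxia and 6.37 and 6.36 in hypoxia. The third catalytic subunit, P4HA3, was not tested and its highest value was 0.456 FPKM.

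Among the lysyl hydroxylases, which prepare collagen lysines for glycosylation and cross-linking, PLOD1 and PLOD2 rose and PLOD3 did not. PLOD2, the telopeptide lysyl hydroxylase (GRCh37 chr3:145752926-145881512, minus strand), was at 49.4 and 45.0 FPKM in normoxia and at 143 and 143 FPKM in hypoxia (log2 change 1.58 ± 0.0700 SE, adjusted p = 0.00653). PLOD1 (GRCh37 chr1:11994262-12035595, plus strand) went from 24.7 and 24.4 FPKM to 55.8 and 54.5 FPKM (log2 change 1.13 ± 0.0674 SE, adjusted p = 0.00707). PLOD3, which also carries glycosyltransferase activity, was at 68.8 and 66.7 FPKM in normoxia and at 58.9 and 61.2 FPKM in hypoxia (log2 change -0.17 ± 0.0610 SE, adjusted p = 0.112). PLOD3 was thus the highest of the 3 genes per length in normoxia and PLOD2 in hypoxia, with a PLOD2 to PLOD3 ratio of 0.718 and 0.675 in normoxia and of 2.43 and 2.33 in hypoxia. The collagen galactosyltransferase COLGALT1 rose from 66.2 and 53.1 FPKM to 86.6 and 90.1 FPKM (log2 change 0.57, adjusted p = 0.0416), a call that was lost with libraries scaled to equal FPKM totals (adjusted p = 0.137). SERPINH1 was at 258 and 219 FPKM in normoxia and at 234 and 236 FPKM in hypoxia (log2 change -0.02 ± 0.0930 SE, adjusted p = 0.894), and the hypoxia values lay between the normoxia values.

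**Figure D2:**
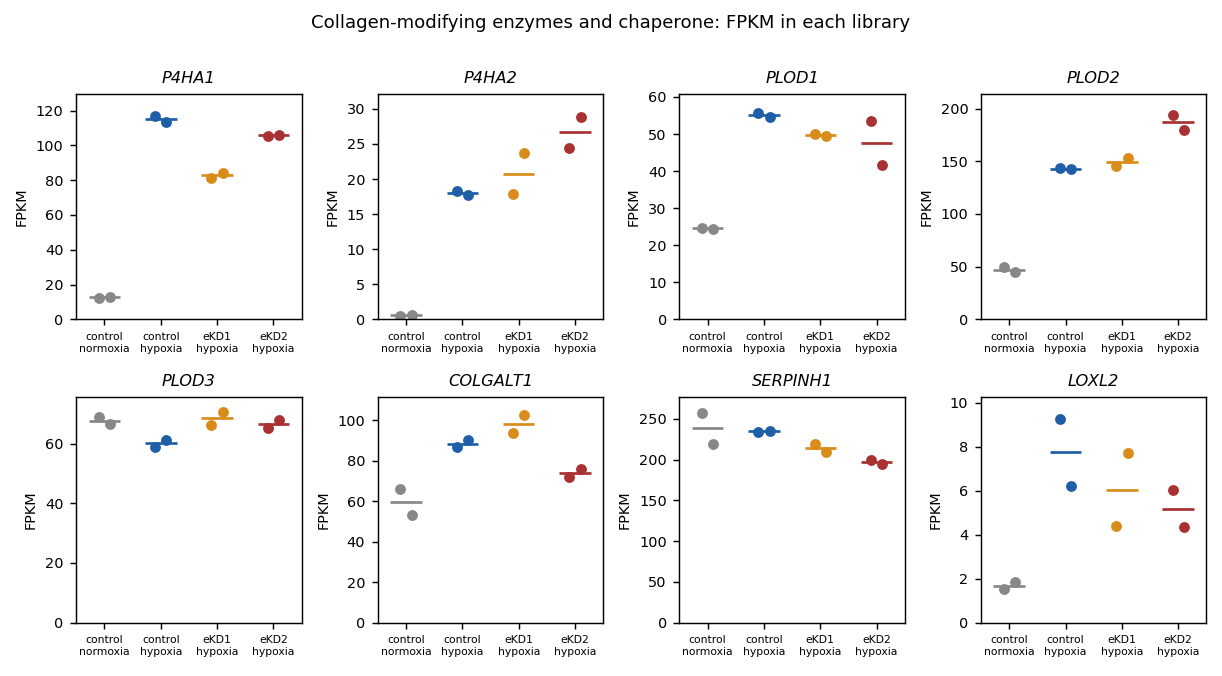
FPKM (y axis, linear from 0) of 8 collagen-modifying genes in each library of the 4 groups (x axis), where points are libraries and bars the mean of the 2. P4HA1, P4HA2, PLOD1, PLOD2 and LOXL2 are low in control normoxia and higher in all 6 hypoxic libraries, while PLOD3 stays between 58.9 and 70.7 FPKM and SERPINH1 between 195 and 258 FPKM.

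LOXL2, a lysyl oxidase-like enzyme that oxidizes lysines of collagen and elastin, was at 1.504 and 1.86 FPKM in normoxia and at 9.27 and 6.21 FPKM in hypoxia (log2 change 1.69 ± 0.239 SE, adjusted p = 0.0177). The values of the groups did not overlap, although the hypoxia libraries differed from each other by more than the normoxia level itself. On the same strand, 2.01% of the LOXL2 exon length overlaps exons of ENTPD4, which reached 70.7 FPKM. The part of those reads in the LOXL2 values was not tested. LOXL1 was at 1.84 and 2.31 FPKM and then at 3.76 and 2.72 FPKM (adjusted p = 0.175), and 9.21% of its exon length lies opposite the exons of LOXL1-AS1, whose reads a library without strand cannot separate. LOXL3 and LOXL4 were not tested, with highest values of 1.14 and 0.0612 FPKM.

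All 5 tested fibrillar chains among the members rose, by less than P4HA1, P4HA2, PLOD1 and PLOD2. COL1A1, which encodes the alpha 1 chain of type I collagen, was at 34.2 and 34.1 FPKM in normoxia and at 57.5 and 49.4 FPKM in hypoxia (log2 change 0.63 ± 0.10 SE, adjusted p = 0.0219). COL5A1, a chain of type V collagen, which nucleates fibrils, went from 49.6 and 47.8 FPKM to 74.0 and 71.0 FPKM (log2 change 0.56 ± 0.0638 SE, adjusted p = 0.0121). In both genes every hypoxia library exceeded every normoxia library, and the increase stayed well under a doubling. COL1A2, COL3A1 and COL5A2 rose by log2 changes of 0.77, 0.37 and 0.51 (adjusted p = 0.00998, 0.0273 and 0.0125), and the COL3A1 call was lost with equal FPKM totals (log2 change 0.13, adjusted p = 0.238). COL1A2 exceeded COL1A1 per length in all 8 libraries, by a ratio of 1.49 to 2.61. COL11A1 was not tested, with a highest value of 0.0698 FPKM.

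The tested chains of basement membrane collagens rose too, COL4A1 and COL4A2 to an extent like that of the fibrillar chains and COL18A1 by more. COL4A1 and COL4A2 are neighbors transcribed in opposite directions on chromosome 13 (GRCh37 chr13:110801310-110959504 and chr13:110958159-111165556), and their products assemble into the common type IV collagen. COL4A1 went from 21.3 and 21.7 FPKM in normoxia to 36.9 and 37.1 FPKM in hypoxia (log2 change 0.75 ± 0.0729 SE, adjusted p = 0.00990). COL4A2 went from 35.0 and 41.7 FPKM to 58.0 and 59.7 FPKM (log2 change 0.61 ± 0.109 SE, adjusted p = 0.0267). The ratio of COL4A2 to COL4A1 stayed within 1.57 to 1.92 over all 8 libraries, and the ranges of its normoxia and hypoxia values overlapped when the eKD libraries were included. COL18A1, the source of endostatin, went from 8.39 and 6.76 FPKM to 15.4 and 20.0 FPKM (log2 change 1.12 ± 0.190 SE, adjusted p = 0.0245), and 18.5% of its exon length lies opposite exons of SLC19A1. COL4A5 was not tested, with a highest value of 0.623 FPKM, in a normoxia library.

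Type VI collagen, which forms beaded filaments at the cell surface, showed the largest changes among the collagen chains, in 2 of its 3 tested chains. COL6A2 was at 13.1 and 14.9 FPKM in normoxia and at 69.4 and 60.1 FPKM in hypoxia (log2 change 2.13 ± 0.119 SE, adjusted p = 0.00679). COL6A1 was at 8.59 and 9.84 FPKM and then at 28.9 and 30.7 FPKM (log2 change 1.59 ± 0.112 SE, adjusted p = 0.00809). Both genes lie on chromosome 21 (GRCh37 chr21:47401684-47424964 for COL6A1 and chr21:47518026-47552762 for COL6A2, both on the plus strand), and both were clearly separated between the groups. COL6A3, whose product joins the other chains in the type VI heterotrimer, was at 4.54 and 0.976 FPKM in normoxia and at 3.12 and 1.73 FPKM in hypoxia (log2 change 0.02 ± 0.596 SE, adjusted p = 0.986), and the duplicates differed from each other more than the groups did. Of the FACIT collagens among the members, which attach to fibrils, COL9A3 rose from 21.8 and 26.1 FPKM to 37.9 and 40.5 FPKM (log2 change 0.69, adjusted p = 0.0253). COL21A1 was at 4.18 and 6.66 FPKM and then at 10.5 and 11.2 FPKM, an increase that missed the threshold (log2 change 0.91 ± 0.235 SE, adjusted p = 0.0567).

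Laminins, heterotrimers of an alpha, a beta and a gamma chain, moved in opposite directions. LAMB1, the most abundant laminin chain per length in every library, fell from 229 and 223 FPKM in normoxia to 129 and 158 FPKM in hypoxia (log2 change -0.66 ± 0.113 SE, adjusted p = 0.0251) and was the only member called lower. LAMC1, the common gamma chain, rose from 44.8 and 49.1 FPKM to 83.3 and 98.5 FPKM (log2 change 0.94 ± 0.113 SE, adjusted p = 0.0136). The LAMB1 values of the groups were separated although the hypoxia duplicates differed, and the ratio of LAMB1 to LAMC1 was 5.10 and 4.54 in normoxia and 1.55 and 1.60 in hypoxia. LAMB2, another beta chain, rose from 22.9 and 30.3 FPKM to 46.6 and 40.6 FPKM at the edge of the threshold (log2 change 0.70, adjusted p = 0.0496), and the call was lost when all 8 libraries shared 1 fit (adjusted p = 0.0726). The alpha chains were low, with LAMA4 at 0.232 to 1.45 FPKM and LAMA5 at 0.696 to 3.02 FPKM over the 8 libraries, and neither passed the test.

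HSPG2 and NID1, which encode perlecan and nidogen, the linkers of the laminin and collagen networks, started low and rose. HSPG2 went from 1.92 and 1.59 FPKM to 11.7 and 10.7 FPKM (log2 change 2.15 ± 0.15 SE, adjusted p = 0.00801). NID1 went from 0.737 and 0.774 FPKM to 3.95 and 3.67 FPKM (log2 change 1.45 ± 0.152 SE, adjusted p = 0.0109), a 5.04-fold ratio of means that the pseudocount compresses on the log2 scale. Neither gene overlapped between the groups. FN1, the gene of fibronectin, rose from 56.8 and 65.4 FPKM to 114 and 126 FPKM (log2 change 0.96 ± 0.103 SE, adjusted p = 0.0112). SPARC, a collagen-binding glycoprotein and the most abundant member in every library, rose from 323 and 321 FPKM to 587 and 611 FPKM (log2 change 0.89 ± 0.0414 SE, adjusted p = 0.00653). Both glycoproteins had duplicates that lay close together and groups that lay well apart.

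None of the 4 proteases passed the test. MMP14, a membrane-anchored collagenase and activator of MMP2, was at 29.0 and 30.4 FPKM in normoxia and at 34.5 and 34.6 FPKM in hypoxia (log2 change 0.21 ± 0.0731 SE, adjusted p = 0.103), and its change turned to -0.02 with equal FPKM totals. MMP2, the gelatinase that degrades type IV collagen, was at 14.0 and 9.30 FPKM and then at 13.2 and 15.8 FPKM (log2 change 0.31 ± 0.235 SE, adjusted p = 0.364). The MMP2 groups overlapped and the MMP14 groups did not. MMP15 was at 0.767 and 0.831 FPKM and then at 1.57 and 1.36 FPKM (adjusted p = 0.112), and ADAMTS1, a versican-cleaving protease, was at 19.7 and 14.6 FPKM and then at 6.10 and 10.4 FPKM (log2 change -1.0 ± 0.303 SE, adjusted p = 0.0792). The standard error of ADAMTS1 was the widest of the 4 proteases, and its groups did not overlap.

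Of the 3 TIMP genes, whose products inhibit metalloproteinases, TIMP2 alone rose. TIMP2 went from 31.8 and 32.5 FPKM to 60.1 and 61.6 FPKM (log2 change 0.90 ± 0.0643 SE, adjusted p = 0.00809). TIMP1 was at 43.2 and 37.6 FPKM in normoxia and at 54.2 and 50.9 FPKM in hypoxia (log2 change 0.37 ± 0.0989 SE, adjusted p = 0.0590). TIMP3, a matrix-bound inhibitor, was at 23.6 and 24.1 FPKM and then at 17.7 and 19.5 FPKM (log2 change -0.35 ± 0.0950 SE, adjusted p = 0.0641), and in the shared fit of 8 libraries it was called lower (adjusted p = 0.0202). TIMP1 and TIMP3 lay just outside the threshold on opposite sides of 0.

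Of the 25 members called with hypoxia, 14 kept the call in all 10 alternatives that used every library, among them both prolyl 4-hydroxylase subunits, PLOD1, PLOD2, COL6A1, COL6A2, HSPG2, FN1 and SPARC. NID1 kept it in the 9 in which it was tested, since its mean lay under the filter of 5 FPKM. The other 10, COLGALT1, LOXL2, COL1A1, COL3A1, COL4A2, COL18A1, COL9A3, LAMB1, LAMB2 and LAMC1, lost it in at least 1, with the direction unchanged. With any 1 library of the compared groups left out, limma on the remaining 3 libraries called 0 of all tested genes, while the shared fit called 22 to 24 members.

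A wider list of 96 other matrix genes, of which 52 were tested, gave 13 called higher and 5 called lower with hypoxia, with a median change of 0.20. Among all tested genes 16.2% were called higher and 16.0% lower, with a median change of 0.01. The 4 with the largest changes among those at 5 FPKM or more were SDC3, LOX, SDC4 and GPC1. LOX, the founding lysyl oxidase, was at 11.6 and 13.2 FPKM in normoxia and at 41.4 and 43.3 FPKM in hypoxia (log2 change 1.70, adjusted p = 0.00707). The cell surface proteoglycans SDC3, SDC4 and GPC1 rose by log2 changes of 1.73, 1.26 and 1.10 (adjusted p = 0.00944, 0.00817 and 0.0377). Of 16 tested genes of collagen processing 5 rose and 1 fell, and of 11 tested proteoglycans 5 rose and 0 fell, whereas 0 of 10 further collagen chains passed the test. Those 10 included the fibrillar chains COL2A1, COL11A2 and COL27A1, and the shared fit called 2 of the 10 lower. Of the 3 tested genes of the list's protease group, 0 rose and 2, ADAMTS4 and ADAMTS10, fell (log2 changes -0.87 and -0.69, adjusted p = 0.0313 and 0.0103). P4HB, the beta subunit that pairs with P4HA1 and P4HA2, chosen for that role with its values known, was at 701 and 719 FPKM in normoxia and at 1410 and 1320 FPKM in hypoxia (log2 change 0.94, adjusted p = 0.00665). P4HB exceeded P4HA1 per length in all libraries, by a ratio of 57.1 and 55.6 in normoxia and of 12.1 and 11.7 in control hypoxia.

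Markers of other cell types were read beside the collagen chains. Of the 5 tested fibroblast markers 1, THY1, was called higher with hypoxia and 0 lower, against 16.2% and 16.0% of all tested genes. Their median change was 0.08. The summed FPKM of the 6 markers was 275 and 289 in normoxia, 402 and 423 in control hypoxia, and 402 to 426 in the 4 eKD libraries. Of the 6, 5 reached 1 FPKM in some library and PDGFRA did not. DCN was at 131 to 153 FPKM in all 8 libraries, and THY1 went from 79.7 and 78.4 FPKM in normoxia to 198 and 201 FPKM in control hypoxia. The log2 changes of LUM, PDGFRB and FAP were 0.21, -0.28 and -0.58 (limma adjusted p = 0.0746, 0.665 and 0.228). No endothelial marker of the 3 in the table reached 1 FPKM, and the summed leukocyte markers were at 24.5 and 24.7 FPKM in normoxia and at 7.99 and 11.6 FPKM in control hypoxia. PTPRC fell from 22.5 and 23.8 FPKM to 4.87 and 5.39 FPKM (log2 change -1.98, adjusted p = 0.00684), while CD68 was at 1.65 and 0.158 FPKM and then at 2.93 and 5.98 FPKM (adjusted p = 0.104). Of the 10 EwS markers, 7 were called lower and 1 higher with hypoxia, against 16.0% and 16.2% of all tested genes. Their median change was -0.44. LIPI fell to 20.7%, NR0B1 to 53.7%, STEAP1 to 57.6% and FLI1 to 58.7% of the normoxia mean. BCL11B fell to 69.7%, PRKCB to 76.8% and CCND1 to 86.6%. CD99 was the marker called higher, at 130% of the normoxia mean (log2 change 0.38, limma adjusted p = 0.0154). NKX2-2 at 82.7% and GLG1 at 101% were not called. The part of these genes in the matrix result was not tested.

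In the eKD1 cells against control cells in hypoxia, 0 of the 38 tested members passed the limma test, where the background was 0.0130% of all tested genes higher and 0.0520% lower. The unadjusted p was below 0.05 for 1 higher and 6 lower members, against 11.7% and 10.0% of all tested genes. The median member change was -0.04 and that of all tested genes 0.00. In the shared fit of 8 libraries, which estimates the spread from all groups, 1 member was called higher and 2 lower, while 2.89% of all tested genes were called higher and 2.06% lower. The member called higher there was TIMP3, at 17.7 and 19.5 FPKM in control hypoxia and at 29.1 and 29.0 FPKM in eKD1 (log2 change 0.62 ± 0.0914 SE, adjusted p = 0.115, and 0.0207 in the shared fit). The eKD1 values of TIMP3 were above all 4 control values, normoxia included. P4HA1 was at 81.4 and 83.9 FPKM in eKD1, or 71.9% of the control hypoxia mean (log2 change -0.47 ± 0.0535 SE, adjusted p = 0.102, and 0.0202 in the shared fit). FN1 was at 73.9 and 83.2 FPKM, or 65.6% of the control hypoxia mean (log2 change -0.60 ± 0.0943 SE, adjusted p = 0.117, and 0.0449 in the shared fit). Both genes lay below both control hypoxia libraries and above both normoxia libraries, and all 3 shared-fit calls were lost when any 1 library of the compared groups was left out. Of the 52 other matrix genes, 0 passed the test in eKD1 and 2 were called higher in the shared fit.

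In the eKD2 cells against control cells in hypoxia, 3 members rose and 2 fell, against 5.80% of all tested genes called higher and 3.81% lower. The eKD1 and eKD2 comparisons share the control hypoxia libraries, and the median member change here was -0.08 beside 0.05 for all tested genes. The split of member calls depended on the scaling, with 2 higher and 3 lower under median-of-ratios rescaling and 4 higher and 0 lower with equal FPKM totals, where the median of all genes was 0.14. TIMP3 rose to 31.8 and 33.0 FPKM (log2 change 0.77 ± 0.0900 SE, adjusted p = 0.0337). COL5A2, the alpha 2 chain of type V collagen, went from 68.9 and 68.6 FPKM in control hypoxia to 100.2 and 99.8 FPKM (log2 change 0.53 ± 0.0488 SE, adjusted p = 0.0287). For each of these genes both eKD2 libraries lay above both control hypoxia libraries. PLOD2 was at 194 and 180 FPKM in eKD2, above the 143 FPKM of both control hypoxia libraries (log2 change 0.39 ± 0.0570 SE, adjusted p = 0.0421). TIMP2 fell to 43.9 and 45.5 FPKM, or 73.5% of the control hypoxia mean (log2 change -0.44 ± 0.0599 SE, adjusted p = 0.0381). SERPINH1 fell to 199 and 195 FPKM (log2 change -0.25 ± 0.0401 SE, adjusted p = 0.0466), a call lost in the shared fit (adjusted p = 0.0814). All 5 calls were lost when the variance trend was omitted (adjusted p = 0.0579 to 0.134). TIMP2 in eKD2 thus lay between the normoxia and the hypoxia levels of control cells, whereas PLOD2 and COL5A2 went further in the direction they took with hypoxia.

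The shared fit called 3 members higher and 3 lower in eKD2, against 10.4% and 6.51% of all tested genes, and added COL1A2 and HSPG2 to the lower members. HSPG2 was at 6.89 and 5.76 FPKM in eKD2, or 56.4% of the control hypoxia mean (log2 change -0.74 ± 0.14 SE, adjusted p = 0.0580, and 0.0326 in the shared fit). COL1A2 was at 102 and 102 FPKM in eKD2 and at 121 and 129 FPKM in control hypoxia (log2 change -0.29 ± 0.0558 SE, adjusted p = 0.0602, and 0.0487 in the shared fit). Both lay below both control hypoxia libraries and above both normoxia libraries. With any 1 library of the compared groups left out, the shared fit called 1 to 3 members and the fit of the compared groups alone called 0. Among the 52 other matrix genes the fit of the compared groups called 3 higher and 0 lower, the shared fit 4 higher and 4 lower, and median-of-ratios rescaling 2 higher and 3 lower. The 3 were LAMB3, which stayed below 5 FPKM, LOX at 57.3 and 59.3 FPKM (log2 change 0.45, adjusted p = 0.0400) and DDR2, a receptor tyrosine kinase for fibrillar collagen. DDR2 measured 82.0 and 83.2 FPKM in normoxia, 56.1 and 58.3 FPKM with hypoxia in control cells and 110.3 and 116 FPKM in the eKD2 libraries (log2 change against control hypoxia 0.97 ± 0.0594 SE, adjusted p = 0.0273).

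**Figure D3:**
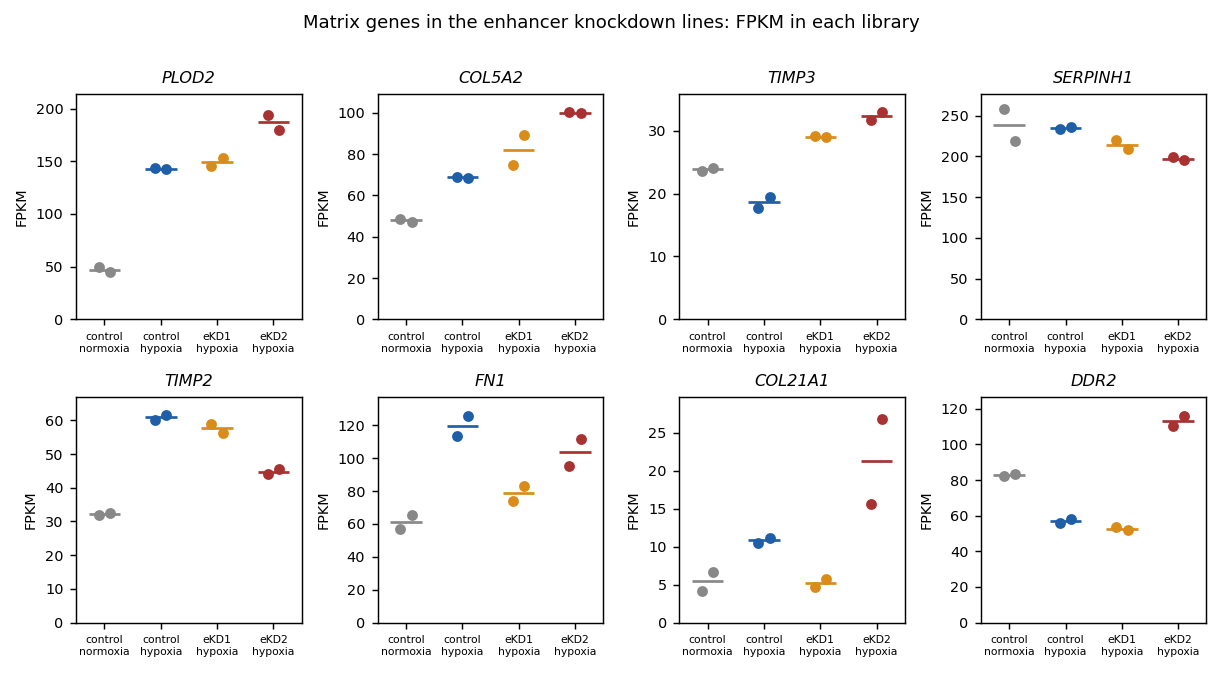
FPKM (y axis, linear from 0) of 7 members and of the collagen receptor gene DDR2 in each library of the 4 groups (x axis), where points are libraries and bars the mean of the 2. TIMP3 is lowest in control hypoxia and highest in eKD2, FN1 is lower in eKD1 than in control hypoxia, and COL21A1 and DDR2 are low in eKD1 and high in eKD2.

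The eKD2 cells were also compared with the eKD1 cells directly, since both guides repress the same enhancer. None of the 38 tested members passed the limma test (background 0.286% higher and 0.117% lower). The unadjusted p was below 0.05 for 6 higher and 2 lower members, against 13.8% and 9.73% of all tested genes. In the shared fit 4 members were called higher and 1 lower, against 5.26% and 3.79% of all tested genes. The largest of these differences was that of COL21A1, with 4.62 and 5.77 FPKM in the eKD1 libraries against 15.6 and 26.9 FPKM in those of eKD2 (log2 difference 1.80 ± 0.311 SE, adjusted p = 0.0993, 0.0198 in the shared fit and 0.0432 among protein-coding genes). Control hypoxia, at 10.5 and 11.2 FPKM, lay between the 2 guides, and the eKD2 duplicates differed strongly from each other. P4HA1 was at 106 and 106 FPKM in eKD2, above both eKD1 libraries (log2 difference 0.35 ± 0.0528 SE, adjusted p = 0.0874, and 0.0250 in the shared fit). LAMB1 measured 130 and 131 FPKM in the eKD1 libraries against 170 and 189 FPKM in those of eKD2 (log2 difference 0.45 ± 0.0712 SE, adjusted p = 0.0894, and 0.0461 in the shared fit). PLOD2 and TIMP2 differed by 0.33 and -0.36 (adjusted p = 0.112 and 0.106, and 0.0413 and 0.0274 in the shared fit). With 1 library of either guide left out, the shared fit called 0 members, except 1 member when eKD2 library 1 was left out.

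A set of 4 members had both eKD1 libraries on one side of both control hypoxia libraries and both eKD2 libraries on the other, an arrangement found for 7.50% of all tested genes. These were COL21A1, COLGALT1, COL4A1 and MMP14. COLGALT1 measured 93.9 and 102.6 FPKM in the eKD1 libraries against 72.1 and 75.7 FPKM in those of eKD2 (log2 difference -0.40 ± 0.0738 SE, adjusted p = 0.104). The corresponding differences of COL4A1 and MMP14 were 0.15 and -0.19 (adjusted p = 0.346 and 0.252). Among the 52 other matrix genes the limma test called DDR2 alone, while the shared fit called 3 higher and 2 lower. DDR2 was at 53.4 and 51.9 FPKM in eKD1 (log2 difference 1.09 ± 0.0611 SE, adjusted p = 0.0420), a call lost without a variance trend and with a replicate block (adjusted p = 0.0902 and 0.207).

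Against control normoxia, the members called in the hypoxic eKD cells were nearly all higher. In eKD1, 16 members were called higher and 1 lower, against 6.06% and 4.75% of all tested genes, with a median member change of 0.67. The eKD1 count fell to 0 without a filter, to 0 with a replicate block and to 7 without a variance trend. In eKD2, 24 members were called higher and 0 lower, against 11.5% and 7.83% of all tested genes, with a median member change of 0.68, and the count was 13 without a filter and 2 with a replicate block. These comparisons share the normoxia libraries with the hypoxia comparison, differ from it in oxygen and in enhancer repression together, and so do not separate the 2. The summed FPKM of the 15 collagen chains was 648 and 643 FPKM for eKD1 and 662 and 700.4 FPKM for eKD2. As shares of all FPKM these sums were 0.0649% and 0.0667% for eKD1 and 0.0695% and 0.073% for eKD2. COL16A1, which is outside the sums, was at 221 and 211 FPKM for eKD1 and at 223 and 214 FPKM for eKD2.

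**Figure D4:**
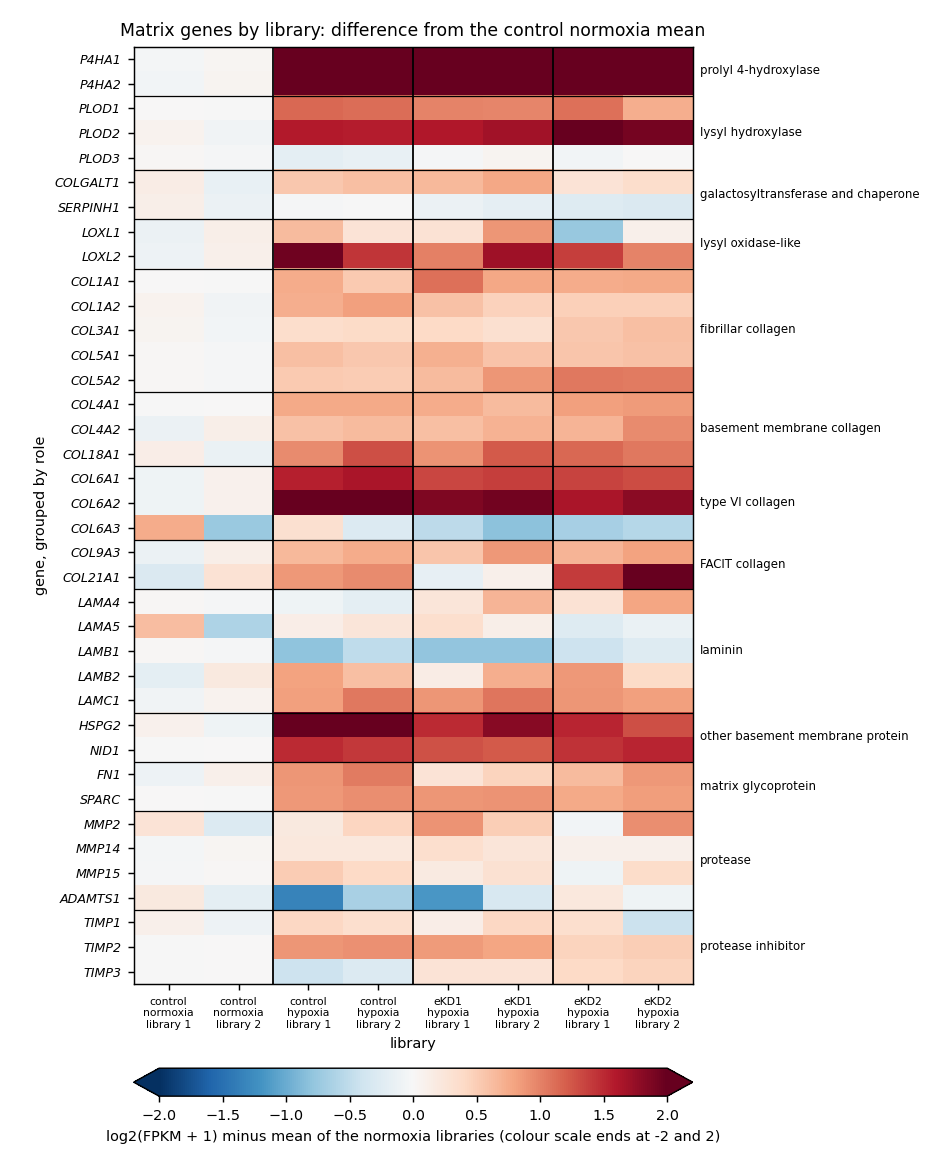
Difference of log2(FPKM + 1) from the mean of the 2 control normoxia libraries (color, scale ending at -2 and 2) for the 38 tested matrix genes (rows, by role) in the 8 libraries (columns). Most rows of collagen chains and modifying enzymes are red in all 6 hypoxic libraries, LAMB1 is blue in them, and COL21A1 and TIMP3 differ between the control and eKD columns.

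The prolyl 4-hydroxylase subunits had the largest changes in both lines. P4HA2 measured 17.9 and 23.7 FPKM in the eKD1 libraries against 24.4 and 28.9 FPKM in those of eKD2, with log2 changes against normoxia of 3.76 and 4.11 (adjusted p = 0.0183 and 0.00619). For P4HA1 the changes were 2.62 and 2.97 (adjusted p = 0.00798 and 0.00313), and for PLOD2, at 145 and 153 FPKM in eKD1, they were 1.64 and 1.97 (adjusted p = 0.0149 and 0.00662). PLOD1 measured 49.96 and 49.5 FPKM in the eKD1 libraries against 53.6 and 41.5 FPKM in those of eKD2, with changes of 0.99 and 0.91 (adjusted p = 0.0261 and 0.0345). All 4 hydroxylase genes were thus above both normoxia libraries in every eKD library. PLOD3, at 65.2 to 70.7 FPKM in the eKD libraries, had changes of 0.02 and -0.02 (adjusted p = 0.898 and 0.805).

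The type VI chain COL6A2 measured 54.0 and 56.2 FPKM in the eKD1 libraries against 45.7 and 51.3 FPKM in those of eKD2, with log2 changes against normoxia of 1.90 and 1.72 (adjusted p = 0.0178 and 0.0125). COL6A1 was at 24.7 and 25.6 FPKM and at 25.0 and 24.1 FPKM, with changes of 1.36 and 1.33 (adjusted p = 0.0280 and 0.0169). Every eKD library was above both normoxia libraries and below both control hypoxia libraries for both chains, and the differences from control hypoxia did not pass the test. HSPG2 showed the same order at a lower level, at 6.77 and 8.75 FPKM in eKD1, with changes of 1.66 and 1.41 (adjusted p = 0.0327 and 0.0241). NID1 measured 3.26 and 3.11 FPKM in the eKD1 libraries against 3.77 and 4.04 FPKM in those of eKD2, with changes of 1.25 and 1.48 (adjusted p = 0.0337 and 0.0207).

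COL5A2 was at 74.7 and 89.2 FPKM in eKD1, with log2 changes against normoxia of 0.76 and 1.05 in eKD1 and eKD2 (adjusted p = 0.0398 and 0.0102). COL1A1 measured 74.3 and 59.0 FPKM in the eKD1 libraries against 57.7 and 58.2 FPKM in those of eKD2, with changes of 0.93 and 0.75 (adjusted p = 0.0397 and 0.0169). Both chains were above both normoxia libraries throughout. COL18A1 and LOXL2 were called higher in eKD2 (log2 changes 1.11 and 1.19, adjusted p = 0.0264 and 0.0404) and missed the threshold in eKD1 with like changes of 1.06 and 1.35 (adjusted p = 0.0530 and 0.0727). COL21A1 was called higher in eKD2 (1.77, adjusted p = 0.0476) and its change in eKD1 was -0.03 (adjusted p = 0.954). The difference between the guides in these genes is that of the direct comparison above, which no member passed.

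LAMC1 and SPARC were called higher in both lines, LAMC1 with log2 changes of 0.98 and 0.85 (adjusted p = 0.0291 and 0.0177) and SPARC, at 543 to 602 FPKM in the eKD libraries, with changes of 0.89 and 0.79 (adjusted p = 0.0149 and 0.0123). LAMB1 was called lower in eKD1 (-0.79, adjusted p = 0.0233) and not in eKD2 (-0.33, adjusted p = 0.0535). FN1 was called higher in eKD2 (0.75, adjusted p = 0.0358) and not in eKD1 (0.36, adjusted p = 0.122). Neither LAMB1 nor FN1 passed the direct limma test between the guides, and in the shared fit LAMB1 was called and FN1 was not. For TIMP2, at 59.0 and 56.2 FPKM in eKD1, the changes were 0.82 and 0.46 (adjusted p = 0.0280 and 0.0316), so that it was above normoxia in both lines. TIMP3 was called higher than in normoxia in eKD2 (0.43, adjusted p = 0.0423), the reverse of its position in control hypoxia. The 4 proteases passed the test in neither line, with ADAMTS1 with 6.997 and 13.3 FPKM in the eKD1 libraries against 19.9 and 15.8 FPKM in those of eKD2.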

How the data were processed

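Polyadenylated RNA of 8 SK-N-MC libraries in 4 groups of 2 was sequenced single-end without strand information, and per the study's methods and processing notes reads were aligned with STAR to hg19 and summarized with Cuffnorm. The deposited table holds the authors' FPKM values per gene (60332 genes), normalized for length and depth, so that counts and absolute depth are unknown here and FPKM totals still differ between libraries. The 43 members were matched by symbol, and positions came from GENCODE 44 lifted to GRCh37. The members, the lists of other matrix genes and markers, and the tests were chosen with earlier results of these data known.

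Values were taken as log2(FPKM + 1), genes with 1 FPKM or more in at least 2 libraries were kept (15372), and limma 3.58.1 was run separately on each pair of groups (R 4.3.3, empirical Bayes with a variance trend), with two-sided p-values adjusted by Benjamini and Hochberg over all genes tested and a threshold of 0.05. Fold changes on this scale understate those of low genes. The tests were run on simulated data first. Values were given in every library for up to 12 called members with the largest changes per comparison and for a fixed set of further members in the hypoxia comparison. Every result was recomputed with another pseudocount (0.1), without the filter or with a mean of at least 5 FPKM, after rescaling by median of ratios or to equal totals, with 1 model over the 8 libraries together, with a block for the replicate number, with the trend omitted or the Bayes step made robust, on protein-coding genes, and without each library in turn. Leaving out libraries within the shared fit was added after seeing the data. With 2 libraries per group, p-values measure the spread between these libraries. PECAM1, an endothelial marker, was not analysed here.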

Additional observations from a re-analysis of the deposited data

Results flagged for a closer look

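DDR2, from the list of other matrix genes, was flagged because it differed between the guides in the direct test, with a log2 difference of 1.09 for eKD2 minus eKD1 (adjusted p = 0.0420, limma). The difference was 1.04 to 1.12 under the alternatives with all libraries and 1.05 to 1.13 with 1 library left out, and its adjusted p ranged from 0.000757 to 0.207 over the alternatives with all libraries.

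Members were flagged because both libraries of one guide lay above, and both of the other guide below, both control hypoxia libraries, which held for 4 members and for 7.50% of all tested genes. The eKD2 minus eKD1 differences were 1.80 for COL21A1, -0.40 for COLGALT1, 0.15 for COL4A1 and -0.19 for MMP14, and none passed the direct limma test (adjusted p = 0.0993, 0.104, 0.346 and 0.252). COL21A1 kept a difference of 1.43 to 2.18 with 1 library left out.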

How the results depend on the processing

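The count of members called with hypoxia (25) became 15 without a filter and 20 with a replicate block, and was 22 to 25 under rescaling or the shared fit. The shared fit gave 3 members for eKD1 against control (0 in the 4-library fit), 6 for eKD2 against control (5) and 5 for eKD2 against eKD1 (0). For eKD2 against control the count was 2 without a filter, 0 with a replicate block, 0 without a variance trend and 9 among protein-coding genes, where eKD2 against eKD1 gave 1. Against normoxia, eKD1 (17) gave 0 without a filter, 0 with a replicate block and 7 without a trend, and eKD2 (24) gave 13 without a filter and 2 with a replicate block. The MMP14 change with hypoxia turned to -0.02 with equal FPKM totals. The cause was not tested in any of these. No called gene value reversed.

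Leaving out 1 library, which leaves 3 libraries and 1 residual degree of freedom, gave 0 calls in every comparison, over all genes too. Within the shared fit, leaving out 1 library gave 22 to 24 members with hypoxia, 0 for eKD1 against control, 1 to 3 for eKD2 against control, 0 to 1 for eKD2 against eKD1, 19 to 22 for eKD1 and 21 to 25 for eKD2 against normoxia.

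Same-numbered libraries were not known to be paired, since the labels name no shared batch and the correlations of their deviations were -0.057 to 0.126. Depth is known only relatively, and members under a few FPKM rest on few reads.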
